A study of Mus musculus with 66 samples.

Results

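The 34 glial and myelin genes described here were a list of genes known to mark or build the glia of the cortex, taken by symbol and found among the 21938 protein-coding gene bodies of GENCODE vM21 on the GRCm38 build of the mouse genome. By the cells they are known from, 17 were assigned to oligodendrocytes, 3 to oligodendrocyte precursors, 11 to astrocytes and 3 to microglia. The question was where the islands of trimethylated histone H3 lysine 36 (H3K36me3) and lysine 9 (H3K9me3), as listed per library, lie over these genes, and whether binge ethanol in adolescence moved them. Oligodendrocytes wrap axons in myelin, a stack of membrane held together by proteins such as Mbp and Mobp and rich in the galactolipids that the enzyme Ugt8a makes. Astrocytes clear glutamate through the transporters Slc1a2 and Slc1a3, and microglia are the resident phagocytes of the brain. H3K36me3 is written behind elongating RNA polymerase II and is known to gather over the bodies of transcribed genes, towards their ends, whereas H3K9me3 is known for heterochromatin, silenced genes and transposon-derived repeats.

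The tissue was prefrontal cortex (PFC) of DBA/2J mice, an inbred strain, and every group came from that strain at the same age. Ethanol mice received 4 g/kg ethanol by gavage as a 25% w/v solution on 8 days, in pairs of dosing days between postnatal day 29 and postnatal day 42, and water mice received water on the same days. The cortex was dissected 24 h after dosing ended, and that of 3 mice alike in sex and treatment was combined into a pool, which is the replicate. Each sex had 6 ethanol and 5 water pools, and each of the 22 pools gave 1 H3K36me3 and 1 H3K9me3 island list, 44 in all, beside an input library. An island is a stretch of 200-bp windows in which the caller SICER counted more reads than its background. Per gene, the covered share is the percent of the gene body that lies under islands, and the read level is the immunoprecipitated (ChIP) reads of those islands per 1000000 island reads of the library (RPM). Whole tissue was used, so fewer cells of a type and less of a mark per cell cannot be told apart.

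The H3K36me3 lists held 19618 to 61911 islands with 1703000 to 4802640 reads, and the H3K9me3 lists 41364 to 72481 islands with 5734011 to 14235444 reads. Between 26.8 and 92.2% of the H3K36me3 islands of a library, and 11.9 to 69% of its H3K9me3 islands, had a listed false discovery rate above 0.01. The median fold over input of the islands was low, 1.05 to 1.71 for H3K36me3 and 1.17 to 1.71 for H3K9me3. Of the island length, 21.1 to 40.3% lay over protein-coding gene bodies for H3K36me3 and 16.7 to 18.3% for H3K9me3. Most H3K36me3 island length thus lay outside them, which limits what an empty gene says. Libraries stood apart for H3K36me3 in male ethanol pool 6 (92.2% of islands above that rate), male ethanol pool 4 (19618 islands) and female water pool 4 (20943 islands), and for H3K9me3 in male ethanol pool 4 (14235444 island reads) and female water pool 2 (69%). Without them 18 in place of 19 members had an H3K36me3 island and 8 as before had an H3K9me3 island. Of the neuronal genes set beside the members, 7 of 18 had an H3K36me3 island in 11 or more libraries (Grin1 and Dlg4 in 17 and 18) and 4 had none. So had 2 of 12 genes of organs outside the brain, Ins2 and Krt5, in 11 or more, beside 25.3% of all genes. The neuronal genes are longer (median 50.6 kb, all genes 17.4 kb). Of 10 zinc-finger genes known to carry H3K9me3, 2 had an H3K9me3 island in 11 or more libraries and 5 an H3K36me3 island. For H3K9me3 it was 4 of 18 neuronal genes, beside 15.5% of all genes.

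Islands were sparse over the members. An H3K36me3 island lay over 19 of 34 members in at least 1 library (55.9%, against 58.8% of all protein-coding genes), over 6 members in 11 or more of 22 libraries (17.6% against 25.3%) and over 1, St18, in every library. An H3K9me3 island lay over 8 members in at least 1 library (23.5% against 29.6%) and over 2, St18 and Ugt8a, in 11 or more (5.88% against 15.5%). Both of these had one in every library. The mean covered share over the members was 1.03% for H3K36me3 and 0.637% for H3K9me3, beside 2.64 and 2.14% over all genes. That mean counts each gene alike. Of the summed length of the genes, H3K36me3 islands covered a mean of 2.23% for the members and 2.92% for all genes. For H3K9me3 the order was the other way, 3.27% for the members and 2.86% for all genes. St18 is the longest member and had the highest H3K9me3 share of the members, so it contributed most to the member value. No H3K9me3 island was listed for 26 of the 34 members, so this order does not describe the members in general. St18 encodes a zinc-finger transcription factor of the MYT1 family, and Ugt8a the enzyme that adds galactose to ceramide. What lay under the islands is shown by the following stretches of the GRCm38.p6 reference (RefSeq, plus strand). This reference is built from C57BL/6J and not from DBA/2J. Lower case marks bases that the reference masks as repeats and capitals mark bases outside repeats, and no stretch overlaps an exon. The first is the St18 stretch with the highest median fold over input among the recurrent H3K9me3 loci (2.10, islands in 22 libraries), and the others are the stretches of St18, Ugt8a, Ptprz1 and Aldh1l1 that the largest number of H3K36me3 lists covered (22, 18, 14 and 15 libraries).
St18 chr1:6664201-6664400: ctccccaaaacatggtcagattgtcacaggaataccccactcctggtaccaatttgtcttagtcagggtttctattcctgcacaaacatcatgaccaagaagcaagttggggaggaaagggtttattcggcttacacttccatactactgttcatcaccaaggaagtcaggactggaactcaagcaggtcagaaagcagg
St18 chr1:6567201-6567500: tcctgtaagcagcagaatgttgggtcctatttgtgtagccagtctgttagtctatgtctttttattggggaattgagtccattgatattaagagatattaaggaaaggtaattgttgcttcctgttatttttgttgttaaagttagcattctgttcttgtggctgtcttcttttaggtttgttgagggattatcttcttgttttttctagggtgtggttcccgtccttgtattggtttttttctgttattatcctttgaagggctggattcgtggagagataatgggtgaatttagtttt
Ugt8a chr3:125903801-125904100: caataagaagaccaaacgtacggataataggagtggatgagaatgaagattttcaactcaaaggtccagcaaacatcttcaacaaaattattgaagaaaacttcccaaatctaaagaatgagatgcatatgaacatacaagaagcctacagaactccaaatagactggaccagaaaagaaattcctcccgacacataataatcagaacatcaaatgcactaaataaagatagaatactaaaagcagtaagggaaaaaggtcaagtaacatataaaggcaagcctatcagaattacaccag
Ptprz1 chr6:23038801-23039000: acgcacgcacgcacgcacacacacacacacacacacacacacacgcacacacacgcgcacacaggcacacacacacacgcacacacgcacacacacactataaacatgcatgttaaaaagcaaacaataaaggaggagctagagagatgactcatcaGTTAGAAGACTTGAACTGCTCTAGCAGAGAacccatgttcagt
Aldh1l1 chr6:90572401-90572700: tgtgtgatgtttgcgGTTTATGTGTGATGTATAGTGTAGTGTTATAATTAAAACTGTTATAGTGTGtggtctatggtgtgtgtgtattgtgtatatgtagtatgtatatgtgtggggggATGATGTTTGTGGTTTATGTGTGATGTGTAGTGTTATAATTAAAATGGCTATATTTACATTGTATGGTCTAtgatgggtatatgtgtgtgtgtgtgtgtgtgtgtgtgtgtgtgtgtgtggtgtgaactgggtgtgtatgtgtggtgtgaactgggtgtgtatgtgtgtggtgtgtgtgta
The 3 stretches of St18 and Ugt8a were masked over 100% of their bases and had an H3K9me3 island in 22 of 22 libraries. The Ptprz1 stretch was masked over 85%, mostly as a run of alternating C and A, and had an H3K9me3 island in 1 library. The Aldh1l1 stretch was masked over 59.3% and had none.

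**Figure D1:**
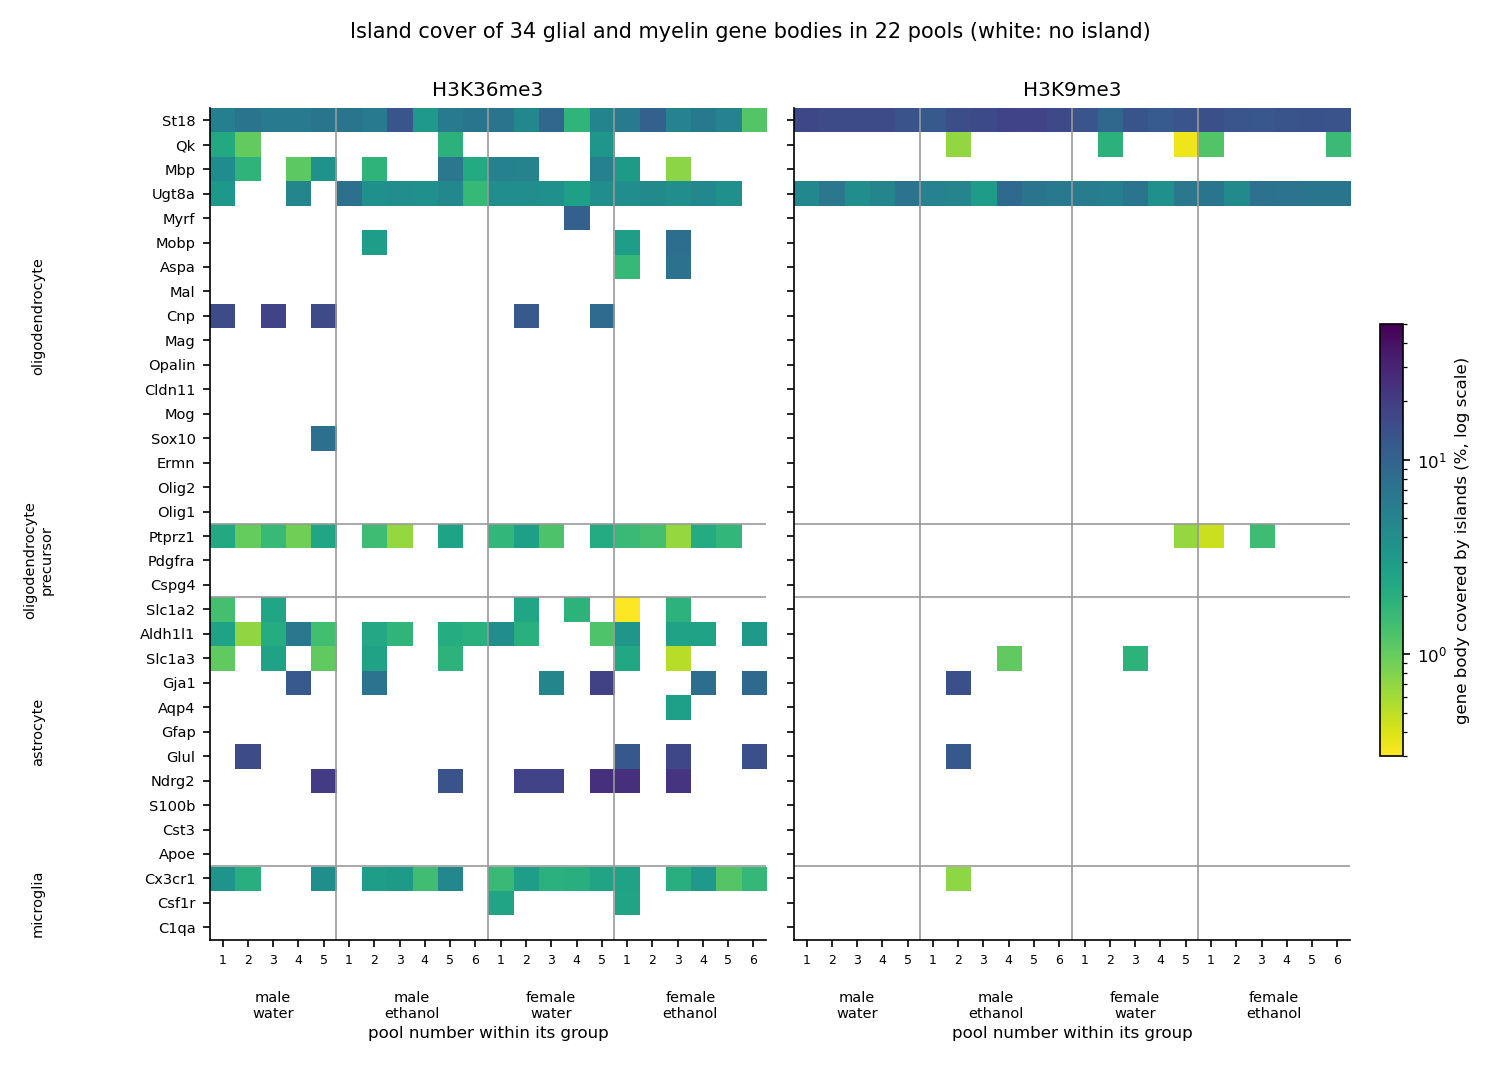
Percent of each gene body under listed islands (colour, log scale; white, no island) for the 34 members, in rows by cell class and length, and the 22 pools of each mark, in columns by sex and treatment. St18 is filled in every column of both marks and Ugt8a in every column of H3K9me3, whereas 15 rows are empty for H3K36me3 and 26 for H3K9me3.

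The 15 members without an H3K36me3 island in any library were the myelin genes Mag, Mal, Mog, Cldn11, Opalin and Ermn, the lineage factors Olig1 and Olig2, the precursor receptor Pdgfra and proteoglycan Cspg4, the astrocyte genes Gfap, Apoe, S100b and Cst3, and the microglial complement gene C1qa. None of them had an H3K9me3 island either. Mag, Mal, Pdgfra and Olig1 were therefore at 0 in all 4 groups for both marks. Mag (chr7:30899176-30914873, minus strand) encodes an adhesion protein of the innermost myelin layer, and its nearest H3K36me3 island was a median of 6.73 kb away. Mal (chr2:127633226-127656695, minus strand) encodes a membrane-sorting proteolipid, and Pdgfra (chr5:75152292-75198215, plus strand) the receptor through which precursors respond to platelet-derived growth factor. Their nearest H3K36me3 islands were a median of 14.9 and 73.8 kb away. Sox10 (chr15:79154908-79165240, minus strand), the transcription factor that switches on myelin genes, had a single island, in male water pool 5 (7.74% of the gene body). These lists hold only islands, so an empty gene has no listed island, and reads outside islands were not analysed here.

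The number of libraries with an island went with gene length. Of the 16 members under 20 kb, 4 had an H3K36me3 island in any library and 0 in 11 or more, beside 33.2 and 5.92% of all genes of that length. Of the 9 members between 20 and 70 kb, 6 had an island in any library and 0 in 11 or more, beside 83.1 and 34.2%. All 9 members between 70 and 400 kb had one and 6 had one in 11 or more libraries, beside 97.7 and 69.2%. For H3K9me3, 2 of these 9 long members reached 11 libraries, beside 45.1% of long genes. These lengths are those of GENCODE. Over RefSeq bodies Aldh1l1 (48.4 kb) had H3K36me3 islands in 16 libraries and Cx3cr1 (19.6 kb) in 0, so 5 members reached 11 libraries and 4 of them were longer than 70 kb.

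**Figure D2:**
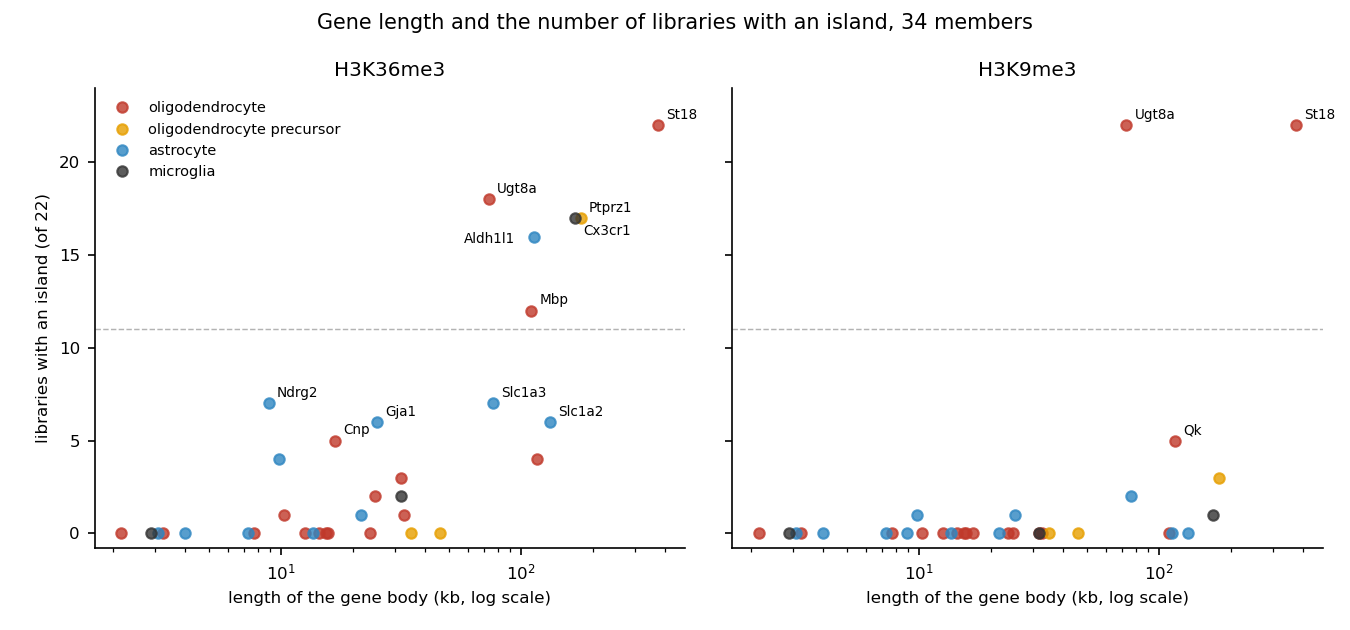
Number of libraries with an island over the gene body (vertical axis, of 22) against the length of the gene body (kb, log scale) for the 34 members, coloured by cell class, with H3K36me3 on the left and H3K9me3 on the right. The dashed line marks 11 libraries, and the 6 members above it for H3K36me3 are all longer than 70 kb in GENCODE, though Aldh1l1 and Cx3cr1 are shorter in RefSeq.

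St18 (chr1:6487231-6860940, plus strand, 374 kb) carried the most H3K9me3 per length and the most reads of both marks in all. H3K9me3 covered a mean of 14% of its body. The covered share in the male water pools was 16.4, 15.1, 15.1, 15.1 and 13.4%, and in the male ethanol pools it ranged from 11.7 to 17.8% with a median of 16%. In the female water pools it was 13, 8.83, 13.2, 11.6 and 13%, and in the female ethanol pools 12.5 to 14.3% with a median of 13.4%. Treated and control pools overlapped in both sexes, and female water pool 2, the pool whose H3K9me3 list stood apart, was the lowest of all. The H3K36me3 share was 5.51, 7.01, 6.15, 6.05 and 6.85% in the male water pools, 3.16 to 13% (median 6.53%) in the male ethanol pools, 7.01, 4.6, 9.21, 1.77 and 4.92% in the female water pools and 1.18 to 10.5% (median 5.70%) in the female ethanol pools. In both sexes the ethanol pools held the highest and the lowest H3K36me3 value, and the water pools lay between them.

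The islands of St18 fell into 22 H3K9me3 loci, of which 9 had an island in all 22 libraries and 12 in 11 or more. The 12 recurrent loci lay between 12.4 and 213 kb from the start of the gene, and none overlapped an annotated exon. The widest, chr1:6548201-6568600, was 61.0 to 81.4 kb from the start and its islands had a median fold over input of 1.67. All 15 H3K36me3 loci of St18 overlapped an H3K9me3 island of some library, and in the same pool 67.2 to 100% (median 81.0%) of the H3K36me3 island length in St18 lay under an H3K9me3 island. Over the whole genome that share was 50.7 to 82.0% (median 67.3%). St18 was covered more before its midpoint than after it in 22 of 22 pools for both marks. The H3K9me3 share was 24.7% before the midpoint and 3.35% after it, a difference within a pool of -21.4 points ± 3.13 (SD, n = 22), and the H3K36me3 share was 10.4 and 1.90%.

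Ugt8a (chr3:125865271-125938619, minus strand, 73.3 kb) had 1 recurrent locus, chr3:125902601-125908800, between 29.8 and 36 kb from its start and outside exons. The H3K9me3 share of the gene body was 4.64, 6.54, 4.09, 4.91 and 7.09% in the male water pools and 3.00 to 8.73% (median 5.73%) in the male ethanol pools. It was 5.73, 5.45, 6.82, 3.82 and 6.54% in the female water pools and 4.36 to 7.36% (median 6.82%) in the female ethanol pools. The groups overlapped in both sexes, and 5 of 6 female ethanol pools were at or above the highest female water pool. H3K36me3 islands at this locus were listed in 18 libraries, and a median of 100% (60.7 to 100%) of their length lay under an H3K9me3 island of the same pool. The H3K36me3 share was 3.27, 0, 0, 4.91 and 0% in the male water pools and 1.64 to 7.63% (median 3.95%) in the male ethanol pools. It was 4.09, 4.09, 3.82, 2.73 and 4.09% in the female water pools and 0 to 4.64% (median 4.09%) in the female ethanol pools. An island was thus listed in 6 of 6 male ethanol and 2 of 5 male water pools, and in 5 of 6 and 5 of 5 female pools.

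**Figure D3:**
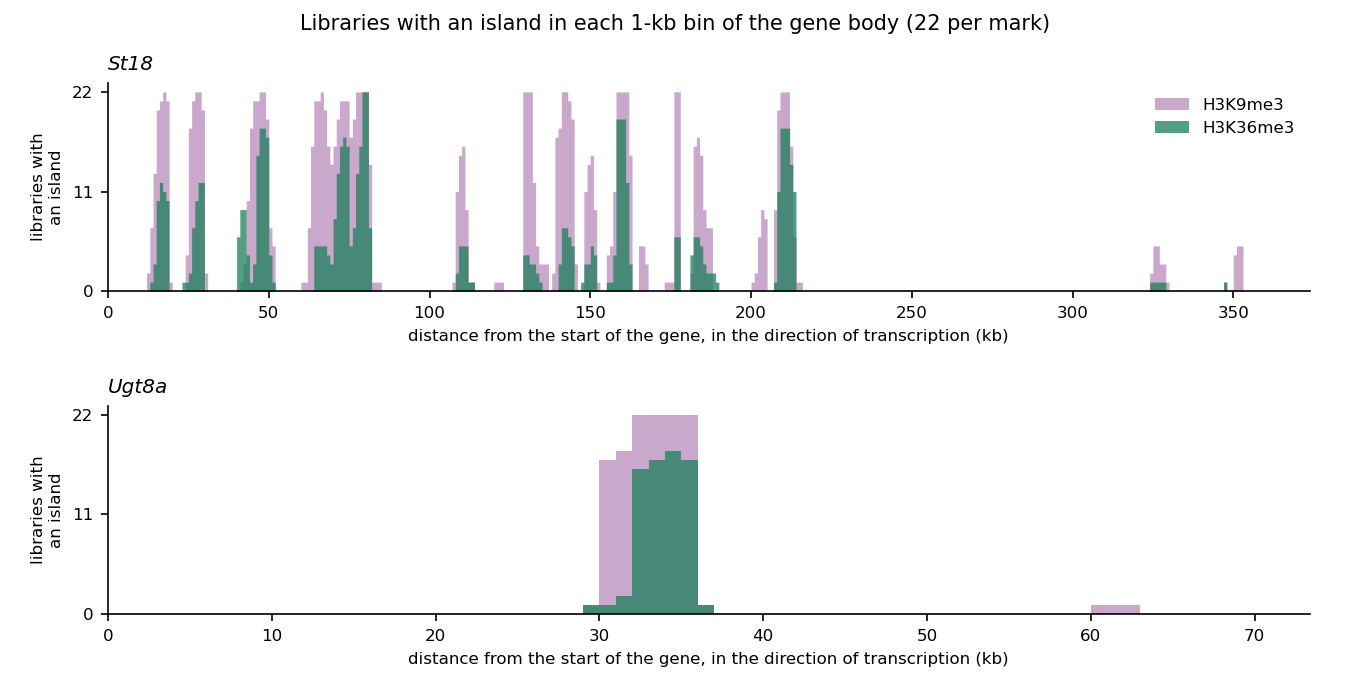
Number of libraries with an island (vertical axis, of 22 per mark) in each 1-kb bin along St18 (top) and Ugt8a (bottom), against the distance from the start of the gene in the direction of transcription (kb). Of the 105 bins with an H3K36me3 island (green), 89 had an H3K9me3 island (violet) in more libraries, 7 in as many and 9 in fewer, among them those at 40 to 42 kb of St18. Bins reached by 11 or more libraries lie in the first 214 kb of St18 and between 30 and 36 kb in Ugt8a.

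Repeats made up most of these loci. The 13 H3K9me3 loci of St18 and Ugt8a with an island in 11 or more libraries were masked over 60.8 to 99.1% of their bases (median 87.3%), whereas the whole gene bodies were masked over 41.3 and 30.0%. The 7 recurrent H3K36me3 loci of the same genes were masked over 84.7 to 99.0%, and the 5 recurrent H3K36me3 loci of Ptprz1, Aldh1l1 and Cx3cr1 over 31.3 to 52.1%. Loci of other members that were listed in fewer libraries could be masked as heavily, such as the H3K9me3 locus of Qk (97.4%, 5 libraries) and the H3K36me3 locus of Aspa (92.8%, 1 library). Of the 32-base words in the H3K9me3 loci, 3.36 to 69.2% were found once in the reference, against 82.6 to 96.2% of the words in the H3K36me3 loci of the other genes. For words of 4 times that length, close to the length of a read, the share found once was 6.83% in the Ugt8a locus, where the median word had 1848 copies, and 57.8 to 100% in the St18 loci. The Ugt8a locus shared 32-base words with 11 of the 12 recurrent St18 loci, up to 2187 words or 35.5% of its own, and 53 of 66 pairs of St18 loci shared words with each other. Reads that mapped to 1 place only were kept for H3K9me3, and the part that repeat content had in these islands was not tested.

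**Figure D4:**
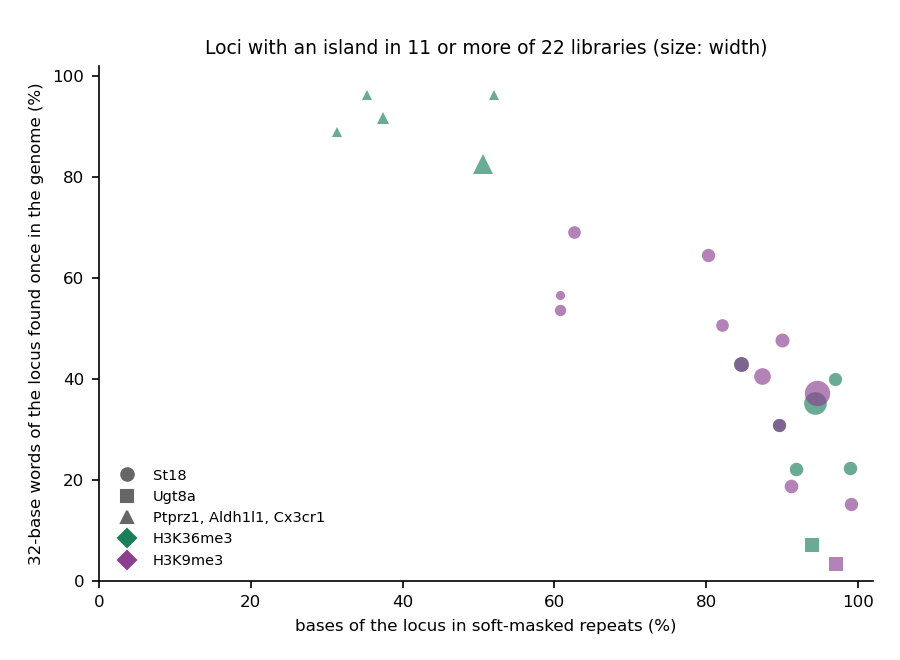
Share of 32-base words found once in the reference genome (vertical axis, %) against the share of bases masked as repeats (horizontal axis, %) for the 25 loci with an island in 11 or more libraries, by gene (shape), mark (colour) and width (size). The loci of Ptprz1, Aldh1l1 and Cx3cr1 lie between 82.6 and 96.2% on the vertical axis, above the loci of St18 and Ugt8a, which reach 69.2%.

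Outside St18 and Ugt8a, 4 long members had H3K36me3 islands in 11 or more libraries. Ptprz1 (chr6:22875502-23052916, plus strand) encodes a receptor-type tyrosine phosphatase of precursors and astrocytes, and its recurrent islands lay at chr6:23024601-23027600 (12 libraries), which includes 118 bp of coding sequence, and at chr6:23038001-23041600 (14 libraries), both more than 149 kb from its start. Its covered share was 2.25, 1.01, 1.58, 0.902 and 2.48% in the male water pools and 0 to 2.59% (median 0.338%) in the male ethanol pools. It was 1.69, 2.71, 1.24, 0 and 2.14% in the female water pools and 0 to 2.14% (median 1.47%) in the female ethanol pools. No male water pool was without an island and 3 of 6 male ethanol pools were, with the groups overlapping.

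Aldh1l1 (chr6:90486427-90600203, plus strand), the folate enzyme used as a marker of astrocytes, had islands at chr6:90551201-90553400 (13 libraries) and chr6:90572001-90573200 (15 libraries), both intronic, although only 4 and 1 of those libraries listed the island at a false discovery rate of at most 0.01. Its covered share was 2.64, 0.703, 2.11, 6.5 and 1.41% in the male water pools, 0 to 2.29% (median 1.85%) in the male ethanol pools, 4.04, 1.93, 0, 0 and 1.23% in the female water pools and 0 to 3.34% (median 2.64%) in the female ethanol pools. Every male water pool had an island, and 2 pools of each other group had none. RefSeq gives Aldh1l1 a shorter body of 48.4 kb, of which a mean of 3.57% was covered.

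Cx3cr1 (chr9:119901616-120069879, minus strand), the fractalkine receptor of microglia, was the microglial member with the highest H3K36me3 level, a mean of 0.138 RPM per kb of gene body. The value belongs to the GENCODE body of 168 kb, which also spans Wdr48, Gorasp1, Ttc21a, Csrnp1 and Xirp1. Over the RefSeq body of 19.6 kb no library had an island of either mark. The recurrent locus, chr9:119987601-120001000, had an island in 17 libraries and lay 68.9 to 82.3 kb from the GENCODE start. The covered share was 3.57, 2.02, 0, 0 and 3.92% in the male water pools, 0 to 4.56% (median 2.14%) in the male ethanol pools, 1.55, 2.85, 1.90, 2.02 and 2.50% in the female water pools and 0 to 3.21% (median 1.84%) in the female ethanol pools. All 4 groups overlapped, and female water was the group in which every pool had an island.

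Mbp, which encodes the basic protein that compacts the inner faces of the myelin membrane, had H3K36me3 islands in 12 libraries and no H3K9me3 island. Its covered share was 4.16, 1.81, 0, 1.09 and 3.62% in the male water pools and 0 to 6.52% (median 0.905%) in the male ethanol pools. It was 5.25, 5.07, 0, 0 and 5.25% in the female water pools and 0 to 3.08% (median 0%) in the female ethanol pools. Islands were listed in 7 of 10 water pools and 5 of 12 ethanol pools, and the ranges overlapped in both sexes. They fell into 7 intronic loci, none of them listed in more than 9 libraries. The locus 39.9 to 42.1 kb from the start was listed in 4 of 5 male water, 0 of 6 male ethanol, 3 of 5 female water and 2 of 6 female ethanol pools, a split that was noticed among many loci and has no test. The locus 61.3 to 65.1 kb from the start, also in 9 libraries, did not share it in males. It was listed in 2 of 5 male water, 3 of 6 male ethanol, 3 of 5 female water and 1 of 6 female ethanol pools.

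The remaining members with islands had them in 7 libraries or fewer. Cnp (chr11:100574904-100591729, plus strand), the phosphodiesterase of the cytoplasmic channels of myelin, had an H3K36me3 island in 5 of 10 water pools and in 0 of 12 ethanol pools. Of all genes, a mean of 29.8% had an island in a male water pool and 20.4% in a male ethanol pool, and 28.8 and 27.5% in females. Genes called in the presence test below mostly had an island in a smaller share of ethanol than of water pools. That was so for 214 of 219 in males and 34 of 39 in females, so the direction of Cnp was the common one. The share of Cnp was 15.5, 0, 17.8, 0 and 15.5% in the male water pools and 0, 11.9, 0, 0 and 8.32% in the female water pools. Both of its loci, chr11:100581801-100583200 and chr11:100585801-100588800, lie where Cnp overlaps Dnajc7, so the islands cannot be assigned to 1 of the genes. Mobp (chr9:120149707-120181484, plus strand), a small basic myelin protein, showed the opposite split with fewer pools. Its locus across the start site, chr9:120149201-120150800, had an island in 1 male and 2 female ethanol pools and in 0 of 10 water pools. Mobp had islands in too few pools of either sex for the share and presence tests, so this split has no such test. The share of the whole body was 2.81% in male ethanol pool 2 and 2.81 and 7.85% in female ethanol pools 1 and 3, and the last of these also holds an island at chr9:120175001-120176400 that no other library listed.

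Ndrg2 (chr14:51905271-51914158, minus strand), a stress-responsive protein of astrocytes, had the highest H3K36me3 level of the 34 members per length, a mean of 0.512 RPM per kb, from 7 libraries. The covered share was 20.3% in male water pool 5 and 13.5% in male ethanol pool 5, the only male pools with an island. It was 0, 18, 18, 0 and 24.8% in the female water pools and 24.8 and 22.5% in 2 of 6 female ethanol pools. Glul (chr1:153899944-153909723, plus strand), glutamine synthetase, was covered in 1 male water pool (15.6%) and 3 of 6 female ethanol pools (12.3, 16.4 and 14.3%), at a locus that spans the end of the gene and 179 bp of its coding sequence. Slc1a3 had islands in 3 of 5 male water pools (1.04, 2.61 and 1.04%), 2 of 6 male ethanol pools (2.61 and 1.83%), 2 of 6 female ethanol pools (2.35 and 0.522%) and 0 of 5 female water pools. Gja1, the gap-junction protein connexin 43, had islands in 6 libraries, none of them over its shorter RefSeq body.

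Of the others, Slc1a2 had H3K36me3 islands in 6 libraries, the RNA-binding protein gene Qk in 4, Aspa (aspartoacylase) and Csf1r (the receptor for colony-stimulating factor 1) in 2 each, and Myrf, the regulator of myelin genes, and the water channel gene Aqp4 in 1 each. H3K9me3 islands outside St18 and Ugt8a were listed for Qk in 5 libraries, Ptprz1 in 3, Slc1a3 in 2 and Gja1, Glul and Cx3cr1 in 1, and the last 3 were all in male ethanol pool 2. With islands of a false discovery rate of at most 0.01 alone, St18 (19 libraries), Ptprz1 (14) and Cx3cr1 (11) still had an H3K36me3 island in 11 or more libraries, and 5 members had an H3K9me3 island in any.

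The members were spread unevenly over libraries. Between 2 and 9 members had an H3K36me3 island in a male ethanol pool (median 4.5), 6 to 10 in a male water pool (median 7), 3 to 13 in a female ethanol pool (median 5.5) and 5 to 10 in a female water pool (median 7). Over all protein-coding genes the medians moved the same way, with 17.3% of genes in male ethanol, 28.8% in male water, 26% in female ethanol and 27.9% in female water pools (13 to 40.0% over libraries). The median member counts thus moved with the share of all genes that had an island. The part of the number of islands called in a library was not tested. For H3K9me3 the number was 2 to 6, beside 13.3 to 19.7% of all genes.

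Where along the gene the islands lay differed between members. Over genes with an island in 11 or more pools the covered shares before and after the midpoint of the gene were compared within a pool (permutation test with 100000 sign changes, Benjamini-Hochberg adjustment over all genes tested). The stretch after the midpoint was covered more in 39.2% of 5545 genes for H3K36me3, and 2 of the 6 members tested were among them. Ptprz1 had 0% before the midpoint and 2.56% after it (17 of 22 pools higher, 0 lower), and Aldh1l1 0.521 and 3.16% (16 higher, 0 lower). Both genes reached 11 pools only through loci after the midpoint, which set their direction, so nothing is read from their test. The Aldh1l1 shares belong to the GENCODE body, since both of its recurrent loci lie before the midpoint of the shorter RefSeq body. The Cx3cr1 shares given next have no counterpart over the RefSeq body. The stretch before the midpoint was covered more in 34.6% of genes, among them St18, Ugt8a, Cx3cr1 (3.45 and 0.454%) and Mbp (2.75 and 0.938%, 8 pools lower and 2 higher, adjusted p = 0.0284). Ugt8a and Cx3cr1 reached 11 pools only through a locus before the midpoint, so nothing is read from their test either. With islands of a false discovery rate of at most 0.01 alone Mbp, Aldh1l1 and Ugt8a had too few H3K36me3 islands to be tested, and St18 kept its call. For H3K9me3, 43.3% of 3410 genes had the higher share after the midpoint and 44.6% before it. St18 was higher before the midpoint (adjusted p = 1.9e-05, permutation test, the smallest that any gene reached). Ugt8a had 11.6% before it and 0.223% after it. Its only recurrent locus lies before the midpoint and set this direction, so nothing is read from its test.

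The marks were also compared within a pool, although they were called with different gaps (600 bp for H3K36me3 and 400 bp for H3K9me3) and at different depths. H3K36me3 covered more of the body than H3K9me3 in 53.4% of 6468 genes with an island in 11 or more pools and less in 29.1%. Of the 6 members among them, Mbp, Ptprz1, Aldh1l1 and Cx3cr1 entered through their H3K36me3 islands alone, with H3K9me3 islands in 0, 3, 0 and 1 libraries, which set their direction, so nothing is read from their test. St18 and Ugt8a had H3K9me3 islands in every pool and were covered less by H3K36me3. The mean difference was -7.86 points ± 3.04 (SD, n = 22) for St18, with H3K9me3 higher in 22 of 22 pools (adjusted p = 5.0e-05, permutation test, the smallest that any gene reached). It was -2.55 points ± 2.46 for Ugt8a, with H3K9me3 higher in 18 pools and lower in 2 (adjusted p = 0.000212, permutation test). With islands of a false discovery rate of at most 0.01 alone H3K36me3 covered more in 45.4% of 4970 genes and less in 42.6%, and St18 and Ugt8a kept their direction.

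Ethanol and water pools were compared within each sex. In the edgeR quasi-likelihood fits of reads over all gene bodies, no member reached an unadjusted p of 0.05 with the filter on low counts. For H3K36me3 that was 0 of 7 members tested in males, where 3.06% of 5783 genes reached it, and 0 of 7 in females, where 0.458% of 6556 did. For H3K9me3 it was 0 of 2 in males (1.79% of 3566 genes) and 0 of 2 in females (2.22% of 3562). No gene passed Benjamini-Hochberg adjustment in these 4 edgeR fits, whereas DESeq2 passed 375, 1, 4 and 4 genes and no member. For male H3K36me3, 185 genes and no member passed in edgeR without male ethanol pool 5. With islands of a false discovery rate of at most 0.01 alone 1 gene passed. For H3K9me3, 1 gene passed in males without male water pool 4, and 2 in females without female water pool 3. St18 H3K9me3 reads differed by a log2 fold change of 0.05 (SE 0.06) in males and 0.06 (SE 0.09) in females, and those of Ugt8a by 0.20 (SE 0.20) and 0.03 (SE 0.15), each with an edgeR adjusted p = 1.00. The fold changes of the 7 members for H3K36me3 ran from -1.23 (Ptprz1, SE 1.56) to 1.45 (Ugt8a, SE 1.6) in males and from -1.93 (Mbp, SE 2.14) to 0.63 (Aldh1l1, SE 1.71) in females. Errors of that size cover changes of several fold in either direction. In males the median log2 fold change over all genes was -0.51 with the scaling used and -0.08 with that of DESeq2, and member values are to be read against that shift. Under DESeq2 the male St18 H3K36me3 fold change reached an unadjusted p of 0.05, at 0.79 (adjusted p = 0.0787), 1 of 7 members beside 12% of 5659 genes, whereas in edgeR it was 0.23 (SE 0.28, adjusted p = 0.984). Without the filter 3 of 15 members reached that p for H3K36me3 in males (Cnp, Sox10 and Slc1a2, all lower with ethanol) beside 14.6% of genes, and 4 of 18 in females (Glul higher, Cnp, Qk and Myrf lower) beside 10.9%. For H3K9me3 it was 0 of 7 in males (8.21% of genes) and 1 of 5 in females (Slc1a3, lower, 10.9% of genes). These genes had islands in few pools, and none passed adjustment.

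The covered share gave 0 of 9 members at an exact permutation p of 0.05 for H3K36me3 in males (8.77% of 7788 genes reached it), 0 of 10 in females (3.53% of 8601), 0 of 2 for H3K9me3 in males (1.91% of 4184) and 0 of 4 in females (2.89% of 4216). With 6 pools against 5 the smallest p possible is 0.00433. For St18 the H3K9me3 share in males was 15.6% ± 2.28 (SD, n = 6) in ethanol pools and 15% ± 1.05 (n = 5) in water pools (two-sided exact permutation test, p = 0.632). In females it was 13.4% ± 0.647 and 11.9% ± 1.83 (exact p = 0.0693). The exact p was 0.0159 without female ethanol pool 3, 0.152 without female water pool 2, where the difference fell from 1.48 to 0.705 points, and 0.342 with islands of a false discovery rate of at most 0.01 alone. The Ugt8a H3K9me3 share was 5.82% ± 1.94 and 5.45% ± 1.29 in males (exact p = 0.745) and 6.54% ± 1.09 and 5.67% ± 1.18 in females (exact p = 0.255). That exact p was 0.0317 without female ethanol pool 2, 0.562 without female water pool 4, where the difference fell from 0.873 to 0.409 points, and 0.126 with the stricter islands. The median difference in H3K9me3 share over all genes tested, ethanol less water, was 0.359 points in females, where 106 of 122 called genes were higher. In males it was 0.0719 points (40 of 80 higher).

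Over all genes tested, the median difference in H3K36me3 share, ethanol less water, was -1.09 points in males, where 575 of 683 called genes were lower, and -0.69 points in females (278 of 304 lower). In the read fits the balance was different and depended on the setting. For male H3K36me3, 125 of 177 called genes were higher with edgeR and 640 of 680 with DESeq2. It was 55 of 129 without scaling factors, 6 of 158 with reads over input reads and 197 of 483 without male ethanol pool 5. In females 10 of 30 were higher with edgeR and 29 of 48 with DESeq2. Of the H3K36me3 shares of members, that of Ugt8a in males was 4.27% ± 1.94 with ethanol and 1.64% ± 2.31 with water (exact permutation p = 0.0606). Leaving out a pool gave an exact p of 0.0190 (without male water pool 4) to 0.133, and the stricter islands gave 0.286. Ptprz1 in males had 0.789% ± 1.06 and 1.65% ± 0.711 (exact p = 0.169, 0.0317 without male ethanol pool 5, up to 0.324 without another pool, and 0.307 with the stricter islands). Mbp had 1.75% ± 2.53 and 2.14% ± 1.74 in males (exact p = 0.788) and 0.634% ± 1.23 and 3.11% ± 2.84 in females (exact p = 0.121). None of these reached an exact p of 0.05 with all pools. For Glul in females the exact p was 0.242, and for Cnp in males, where all 6 ethanol pools were at 0, 0.121.

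**Figure D5:**
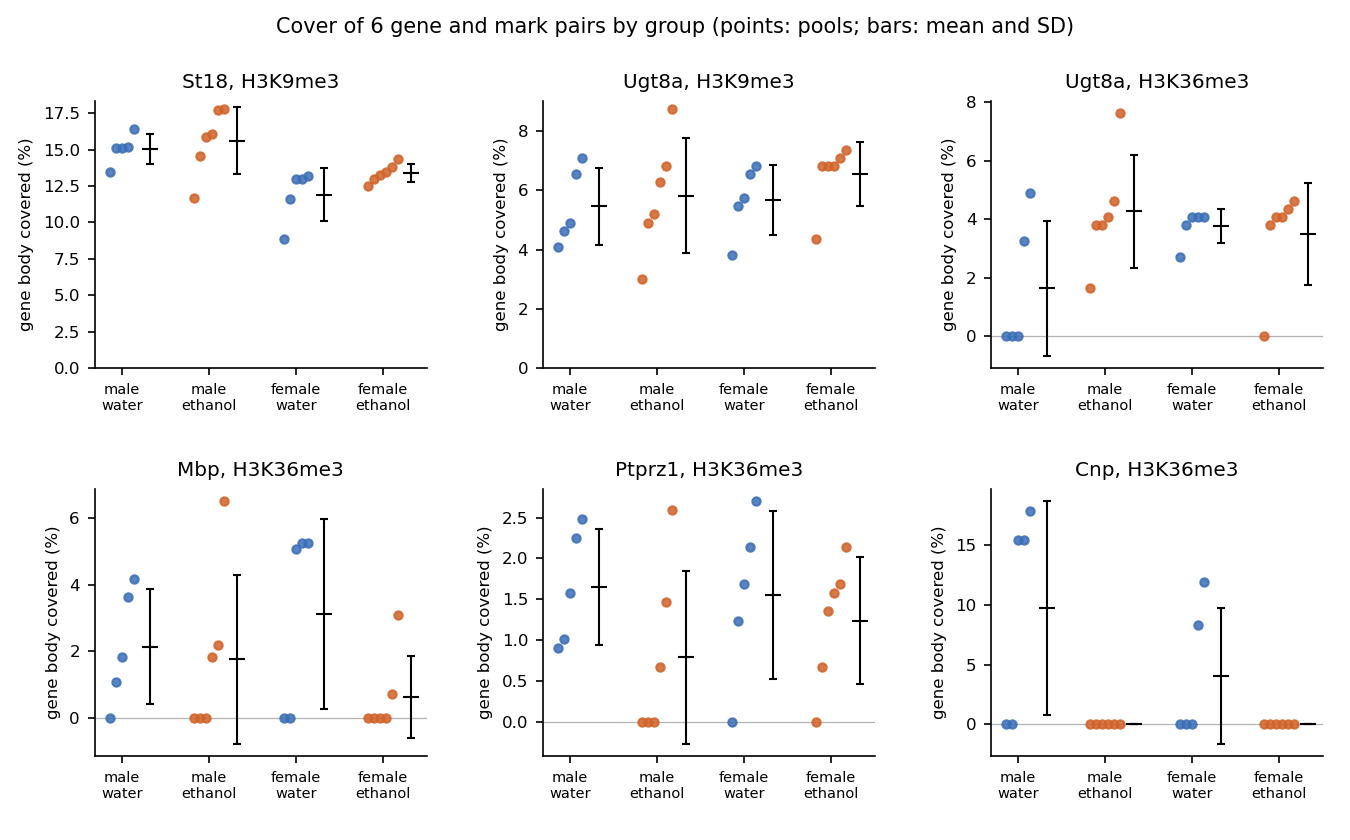
Percent of the gene body under islands (vertical axis) in each pool for 6 gene and mark pairs, by sex and treatment (blue, water; orange, ethanol), with the mean and SD of each group beside its points. The treated and control points overlap in every panel, and for Cnp all 12 ethanol pools and 5 of 10 water pools are at 0.

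Presence of an island was compared with Fisher's exact test. It gave 0 of 7 members at p of 0.05 for H3K36me3 in males (4.41% of 4963 genes), 0 of 6 in females (0.779% of 5005) and 0 of 2 for H3K9me3 in females (1.12% of 1429), and no member could be tested for H3K9me3 in males (0.811% of 1356). For male H3K36me3, 214 of the 219 genes called had fewer ethanol pools with an island. Cnp was listed in 0 of 6 male ethanol and 3 of 5 male water pools, and Ugt8a H3K36me3 in 6 of 6 and 2 of 5, each with an exact p of 0.0606. That p was 0.0333 for Cnp without male water pool 2 or 4 and for Ugt8a without male water pool 1 or 4, and up to 0.167 for both without another pool. With the stricter islands Ugt8a was listed in 4 of 6 and 1 of 5 (exact p = 0.242), and Cnp as before.

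The response to ethanol was compared between the sexes in a fit of all 22 libraries of a mark. For H3K36me3, 1 of 11 members tested reached an unadjusted p of 0.05, Slc1a3 (edgeR adjusted p = 0.618), where 7.98% of 8455 genes did. No fold is given, since all 5 female water pools were at 0. It was no longer reached without female water pool 2 or 5, with DESeq2 (adjusted p = 1.00), with reads over input reads or with the replicate number as a block. Glul, which the filter on low counts removed, was tested and reached it without the filter (adjusted p = 0.250, 2 of 19 members beside 9.13% of genes) and when any of 9 water pools was left out (adjusted p = 0.433 to adjusted p = 0.614, beside 7.10 to 8.24% of genes), and Slc1a2 reached it without female ethanol pool 2 or 4. For H3K9me3 it was 0 of 3 members, beside 6.49% of 4286 genes.

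The sexes themselves were compared after the St18 values had been seen, with treatment as a covariate. In the male pools the H3K9me3 read level of St18 was 252 to 324 RPM, a mean of 275 RPM ± 19.4 (SD, n = 11), and in the female pools 196 to 257 RPM, a mean of 226 RPM ± 19.6 (n = 11). Male water pool 5 (252 RPM) was the only male pool below a female pool. The log2 fold change of female against male pools was -0.14 (SE 0.05, edgeR adjusted p = 0.132), and 1 of 3 members reached an unadjusted p of 0.05 where 12.6% of all 4286 genes and 4.90% of the 3919 autosomal genes did. The size depended on the scaling. Without scaling factors, which left the median of all genes at -0.17 rather than -0.03, it was -0.29 (adjusted p = 0.000181), in a fit where 686 of 4286 genes passed adjustment, and with DESeq2, where 399 of 4270 did, it was -0.17 (adjusted p = 0.0213). In the water pools alone it was -0.15 (adjusted p = 0.707), and the adjusted p was 0.0374 without female water pool 4. For H3K36me3, 0 of 11 members reached p of 0.05, beside 3.41% of 8455 genes.

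Among 47 other glial genes, 12 had an H3K36me3 island in 11 or more libraries (25.5%, against 25.3% of all protein-coding genes). For H3K9me3 it was 6 (12.8% against 15.5%), and with the stricter islands 6 and 5. No H3K36me3 island was listed in any library for 26 of the 47, among them 5 of 9 precursor and 8 of 11 astrocyte genes. The precursor genes Pcdh15, Lhfpl3 and Sox6 and the bicarbonate transporter gene Slc4a4 of astrocytes, 353 to 1550.4 kb long, had islands of both marks in 22 of 22 libraries, as had Itgam, the integrin of microglia, at 55.9 kb, although its H3K9me3 island had a false discovery rate of at most 0.01 in fewer than 11 libraries. Tyrobp, the microglial signalling adaptor, is 3.83 kb long and was covered by H3K36me3 islands over a mean of 39.3% in 15 libraries, more than any of the 34 members.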

How the data were processed

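Islands of 44 ChIP-seq libraries, 22 per mark, were used. The authors trimmed reads (CutAdapt), aligned them to GRCm38/mm10 with Bowtie2 2.4.1, dropped blacklisted and multiply mapping reads and called islands per pool with SICER. The methods describe this for H3K9me3 (200-bp windows, gaps of 400 bp). For H3K36me3 the processing notes name the same tools and the lists a gap of 600 bp, and no source used here gives its read filters. The deposited lists give ChIP and input read counts, a p-value, a fold over input (ratio) and a q-value per island. Island reads were apportioned to GENCODE vM21 gene bodies by overlapped length, rounded, and fitted over all genes with edgeR 4.0.16 (quasi-likelihood test, TMM scaling, filterByExpr) in R 4.3.3. Covered shares were compared with exact permutation tests (462 placements of the labels, genes with an island in at least 3 libraries) and presence with Fisher's exact test. Depth, 1703000 to 14235444 island reads per library, limits genes with few islands. p-values cover the spread between pools of 3 mice.

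Alternatives were islands with a q-value of at most 0.01, no TMM factors, no filter, DESeq2 1.42.0, reads over input reads, a replicate block, RefSeq bodies and leaving out each pool. The scripts were tested on simulated data. Members and lists were chosen with earlier results of these data known, and the comparison of the sexes was added after values were seen. Values were printed for members at p of at most 0.05, those with the highest and lowest H3K36me3 and the highest H3K9me3 level of each class, and those the study measured by qPCR; other members named were chosen after their values were seen. Sequences came from the RefSeq FASTA of GRCm38.p6, and no sequence of chromosome 18 is printed.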

Additional observations from a re-analysis of the deposited data

Results flagged for a closer look

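Samples that lay far from the rest of their group were found in 6 of 40 groups of 5 or 6 pools tested. The number that chance alone gives was not measured for these values, many of which are at 0. The H3K36me3 share of Mbp was 3.08% in female ethanol pool 1, beside 0 to 0.724% in the other 5 pools, and 6.52% in male ethanol pool 5, beside 0 to 2.17%. The H3K36me3 share of Ugt8a was 0% in female ethanol pool 6, beside 3.82 to 4.64%, and 2.73% in female water pool 4, beside 3.82 to 4.09%. Its H3K9me3 share was 4.36% in female ethanol pool 2, beside 6.82 to 7.36%. In male ethanol pool 2, 6 members had an H3K9me3 island, beside 2 or 3 in the other pools of that group. Female water pool 4 was among the libraries with the fewest H3K36me3 islands, and the part of depth in these values was not tested. The response of Slc1a3 H3K36me3 reads to ethanol differed between the sexes at an unadjusted p of 0.0309 in edgeR (adjusted p = 0.618), with islands in 2 of 6 ethanol and 0 of 5 water pools in females and in 2 of 6 and 3 of 5 in males.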

How the results depend on the processing

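With 6 or 5 pools a group and few reads per gene, 33 counts of genes or members moved by over 1.5 times under another setting and 34 did not, 52 moved and 168 did not when a pool was left out, and the cause was not tested except that fewer or more genes are tested with stricter islands or without the filter on low counts. Genes at p of at most 0.05 in the ethanol comparison numbered 22 (islands with a q-value of at most 0.01), 1615 (no filter), 680 (DESeq2) and 291 (replicate block) for male H3K36me3. For female H3K36me3 they were 12 (strict islands), 47 (no TMM factors), 1297 (no filter), 48 (DESeq2) and 503 (reads over input reads). For male H3K9me3 they were 461 (no filter) and 151 (input), and for female H3K9me3 19 (strict islands), 623 (no filter), 132 (DESeq2) and 148 (input). For treatment by sex they were 1176 (no filter), 276 (DESeq2), 70 (input) and 117 (block) for H3K36me3, and 486 (no filter), 166 (input) and 99 (block) for H3K9me3. Female against male pools gave 165 (strict islands), 2017 (no filter) and 115 (water pools alone) for H3K36me3 and 342 (strict islands), 1065 (no TMM factors), 1589 (no filter) and 327 (water pools alone) for H3K9me3. With strict islands the presence test gave 66 genes for female H3K36me3, the comparison across the midpoint 2063 genes for H3K36me3, 3 members had an H3K36me3 island in 11 or more libraries and 5 an H3K9me3 island in any.

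Changes that were within their error turned sign. St18 H3K9me3 reads in males gave log2 fold changes of -0.0150 (strict islands) and -0.0367 (input), and Ugt8a in females -0.0111 (strict islands), -0.0136 (no TMM factors), -0.0265 (input) and -0.00516 (replicate block). St18 H3K36me3 gave -0.00840 in males and -0.0864 in females (input). With strict islands the H3K36me3 share differences were -0.0397 (male) and 0.23 points (female) for Cx3cr1 and -0.22 points for St18 in females. Slc1a3 lost its call for treatment by sex with DESeq2, input and the replicate block. Without the filter on low counts, H3K36me3 reads called 3 members in males, 4 in females and 2 for treatment by sex, and H3K9me3 reads 0, 1 and 1 (Slc1a3).

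Leaving out each pool in turn gave 126 to 483 genes for male H3K36me3, 25 to 132 for female H3K36me3, 549 to 1456 for its treatment by sex, 54 to 115 for male H3K9me3 and 68 to 207 for female H3K9me3. The share test then gave 493 to 1439, 152 to 475, 72 to 147 and 78 to 223 genes, and the presence test 243 to 815, 51 to 136, 16 to 30 and 21 to 55, for male and female H3K36me3 and male and female H3K9me3. Values that turned sign ranged from -0.00438 to 0.118 (Ugt8a, female H3K9me3 reads), -0.00455 to 0.355 and -0.131 to 0.342 (St18, male and female H3K36me3 reads, log2). Share differences ranged from -0.482 to 1.49 (St18, male H3K36me3), -1.34 to 0.121 (Mbp, male), -0.428 to 0.592 (Cx3cr1, male), -0.706 to 1.17 (St18, female H3K36me3), -0.523 to 0.436 (Ugt8a, female H3K36me3) and -0.218 to 0.927 points (Ugt8a, male H3K9me3). Same-numbered ethanol and water pools did not deviate together (correlations of -0.315 to 0.084), so the replicate block pairs pools that share only a number.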
